A study of Mus musculus with 9 samples.

Results

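The genes described here are 10 genes of glucose uptake and glycolysis, taken from the deposited gene table by their symbols: Slc2a1, Hk2, Gpi1, Pfkp, Aldoa, Tpi1, Pgk1, Eno1, Pkm and Ldha. All 10 were among the 16509 genes of the table, and all 10 were among the 11949 genes that passed the filter on low counts. Poly(A) RNA from cultured MC38 cells, which are a colon carcinoma line of the mouse, had been sequenced in 9 bulk libraries, 3 for each of 3 groups. CTL cells were labelled as treated with DMSO, a solvent control, whereas the study's text gives PBS for the same group. Cu-Cys cells were treated with a copper and cystine coordination polymer, and Cadict cells with a nanodrug made of that polymer, glucose oxidase and a peptide directed at EGFR. No dose or exposure time was given for these libraries, all groups share the one cell line, and the labels do not say whether replicates were separate cultures, although the study's methods speak of biological replicates in general. The p-values measure the spread between these libraries, which may be technical where cultures were shared.

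Glycolysis breaks glucose down to pyruvate in the cytosol and yields ATP and NADH without oxygen. Glucose enters through transporters of the Slc2a family, is trapped by hexokinase as glucose 6-phosphate, is committed to breakdown by phosphofructokinase, and is split by aldolase into a pair of triose phosphates, which the lower enzymes turn into pyruvate. Colon carcinoma cells are known for using the pathway strongly even in oxygen, with lactate dehydrogenase turning pyruvate into lactate and regenerating NAD. Glucose oxidase, the enzyme carried by Cadict and absent from Cu-Cys, consumes glucose and releases hydrogen peroxide.

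Library totals lay between 17905771 and 18293056 expected counts, and the upper limit for a gene with no count, 3 counts, was worth 0.164 to 0.168 CPM (counts per 1e+06 of the library total), a limit that covers only the error of counting. The top 100 genes of each library held 17.2% to 18.2% of the counts in CTL and Cu-Cys but 29.8% to 31.1% in Cadict. The TMM scaling factors, which place libraries on a common level by the bulk of the genes, were 1.26 to 1.27 in CTL, 1.21 in Cu-Cys and 0.64 to 0.67 in Cadict. With TMM the median log2 fold change of all genes from CTL to Cadict was -0.13, and with library totals alone it was -1.08. Changes that involve Cadict are therefore given with TMM and with library totals, and those from CTL to Cadict in the 10 genes also as the distance from the median of all genes, which a scaling leaves in place because it moves all genes alike. Bulk libraries cannot tell fewer transcripts per cell from fewer cells of a kind. Cadict replicate 2 stood apart, with a chi-square per degree of freedom of 14.7 and 23.1 against the other Cadict libraries, which gave 3.63 against each other. The values were 1.88 to 2.06 within CTL and 2.66 to 4.53 within Cu-Cys. The groups share an estimate of the spread, so p-values from CTL to Cu-Cys also depend on the Cadict libraries. Results that rest on Cadict replicate 2 are also given without it. Of 8 epithelial markers 7 were in the table, with summed levels of 6.83 to 8.7 CPM in CTL, 4.8 to 5.29 CPM in Cu-Cys and 16.1 to 17.4 CPM in Cadict, and their part in the results was not tested. Epcam, Krt18, Vil1 and Egfr, the last being the target of the Cadict peptide, had at most 5 counts in any library, whereas Cdh1 had 65 to 152 and Krt19 14 to 131. The leukocyte markers in the table had at most 4 counts in any library and the endothelial ones at most 30.

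Per transcript length, Eno1 was the most abundant of the 10 genes and Hk2 the least. Mean TPM (transcripts per 1e+06 of a library, corrected for length) in CTL libraries ran from 3486 ± 77.9 for Eno1 through 2470 ± 85.6 for Pkm, 2068 ± 40.5 for Ldha, 1413 ± 49.7 for Tpi1 and 1114 ± 33.9 for Pgk1 (SD, n = 3). Aldoa followed at 947.8 ± 22.8, Gpi1 at 245.5 ± 9.99, Slc2a1 at 77.41 ± 3.53, Pfkp at 65.93 ± 2.66 and Hk2 at 24.07 ± 1 TPM. The enzymes from aldolase onward thus exceeded transport, hexokinase and phosphofructokinase by more than the spread in each group, and no neighbours in this order overlapped in CTL. In Cu-Cys libraries the order was unchanged, and Pkm at 2505 ± 144 and Ldha at 2365 ± 29.7 TPM overlapped. In Cadict libraries Tpi1 moved from the fourth to the sixth place, at 539.7 ± 19.5 TPM, and Aldoa and Pgk1, at 747.2 ± 13.1 and 727.6 ± 14.7 TPM, overlapped. By TPM among all 16509 genes, Eno1 was at place 32 in CTL and 73 in Cadict and Tpi1 at place 109 and 291. Slc2a1 went the other way, from place 2205 in CTL to 1461 in Cu-Cys and 1030 in Cadict.

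**Figure D1:**
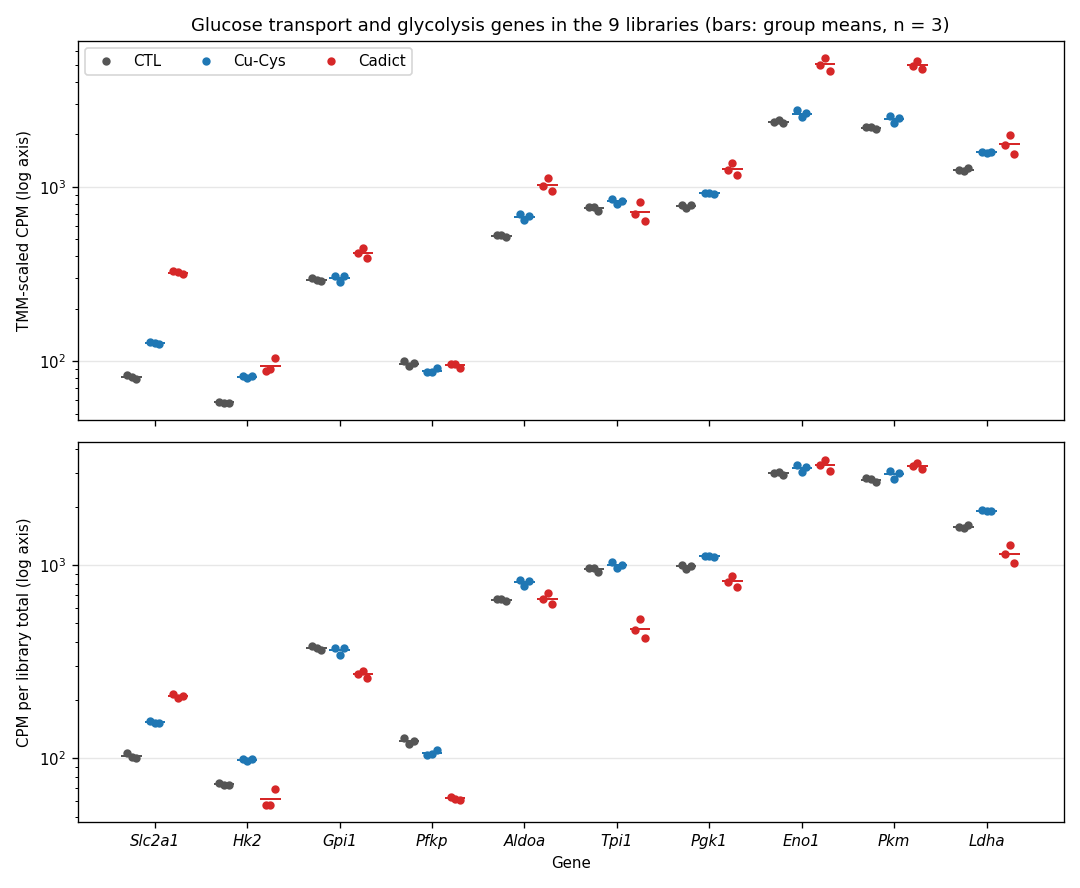
Level of each of the 10 genes in each of the 9 libraries, as TMM-scaled CPM (top) and as CPM of the library total (bottom), both on log axes, with 1 point per library and a bar at each group mean. Slc2a1 was higher in every Cadict library than in every CTL library on both scales, while Hk2, Gpi1, Pgk1 and Ldha lay above CTL on the upper scale and below it on the lower one.

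Cadict was compared with CTL to measure how the complete nanodrug, which carries an enzyme that consumes glucose, altered these transcripts. Slc2a1, Pkm and Eno1 rose past the call, a 2-fold or larger change with an adjusted p no higher than 0.001 by edgeR's quasi-likelihood test, and none of the 10 genes fell past it. Over all genes tested, 20.7% were called higher and 27.1% lower. With a limit of 0.05 on the adjusted p and none on the fold change, 8 of the 10 were higher and none was lower by edgeR, beside 40.6% and 47.1% of all genes. With library totals in place of TMM only Slc2a1 was called higher and Tpi1 was called lower, beside 6.93% and 51.5% of all genes. The 10 genes had a median log2 fold change of 0.70 with TMM and -0.26 with library totals, in both cases above the median of all genes. The distance of each gene from the median of all genes with TMM was 2.11 for Slc2a1, 1.31 for Pkm, 1.22 for Eno1, 1.10 for Aldoa, 0.83 for Pgk1, 0.82 for Hk2, 0.63 for Gpi1, 0.62 for Ldha, 0.09 for Pfkp and 0.06 for Tpi1. On the scale of log2(TPM + 1) the distances were shorter, at 1.80 for Slc2a1, and below the median for Pfkp at -0.19 and Tpi1 at -0.26. Without Cadict replicate 2 the TMM count stayed at 3 and the median was 0.68. On the TMM scale the libraries of CTL and Cadict did not overlap for 8 of the 10 genes, beside 87.5% of all genes, so separation of the groups was no mark of these genes.

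**Figure D2:**
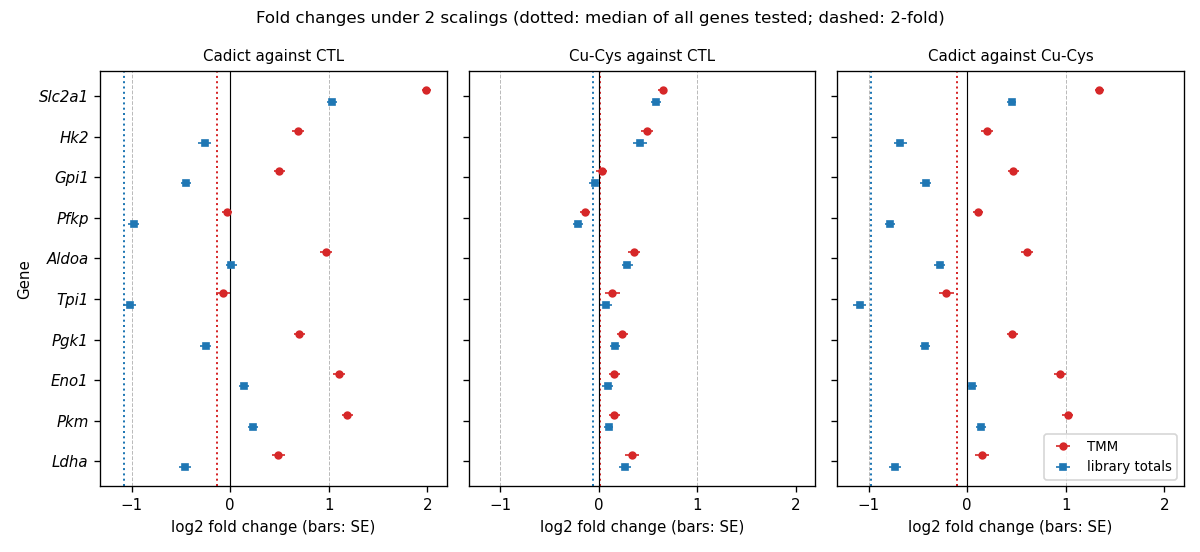
Log2 fold change of each gene (horizontal axis, bars SE) in the 3 comparisons, with TMM (circles) and library totals (squares), the dotted lines marking the median of all genes tested on each scale and the dashed lines a 2-fold change. From CTL to Cadict, Slc2a1 stands at 1.99 and 1.03, while Pfkp and Tpi1 lie close to the median of all genes on both scales.

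Slc2a1 encodes the basal glucose transporter of most proliferating cells and had the highest log2 fold change of the 10 genes in each comparison on both scales. Its TMM CPM were 83.8, 81.0 and 79.2 in CTL, 130, 127 and 126 in Cu-Cys and 329, 323 and 315 in Cadict. The 3 groups did not overlap and were ordered CTL, Cu-Cys, Cadict, and the spread within a group was small beside the steps between them. From CTL to Cadict it rose by a log2 fold change of 1.99 ± 0.048 (SE), or 3.96-fold, with an adjusted p of 4.92e-15 by edgeR. With library totals the rise was 2.05-fold, a log2 fold change of 1.03, and it was the one gene of the 10 that was called higher on both scales. Its distance from the median of all genes placed it at percentile 93 of all genes tested. On the scale of log2(TPM + 1) with limma the change was smaller, at 0.67, and under the 2-fold limit.

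From CTL to Cu-Cys the log2 fold change of Slc2a1 was 0.65 ± 0.047 (adjusted p = 1.2e-07, edgeR), or 1.57-fold, under the 2-fold limit but at percentile 97.6 of all genes. From Cu-Cys to Cadict it rose by 1.34 ± 0.046 (adjusted p = 4.13e-13, edgeR) with TMM, and the value was 0.45 with library totals.

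Other glucose carriers did not share this pattern. Of 12 further transporter genes on the list, 11 were in the table and 4 were tested. From CTL to Cadict with TMM, 3 of these fell past the call and none rose, beside 27.1% and 20.7% of all genes. The 3 were Slc2a8, Slc2a9 and Slc2a10, all under 10 CPM and so outside the naming rule. With library totals all 4 were called lower, beside 51.5% of all genes. Their median was -1.48 with TMM and -2.43 with library totals. Slc2a3, a high-affinity glucose transporter, had at most 4 counts in any library and was not tested. As a share of the summed TPM of all 12 transporter genes in the table, which needs no scaling between libraries, Slc2a1 made up 80.9% ± 0.34 in CTL, 89.5% ± 0.31 in Cu-Cys and 97.0% ± 0.22 in Cadict (SD, n = 3), with no overlap between groups. The summed TPM of the family was 91.53 to 100.7 in CTL, 121.3 to 124.1 in Cu-Cys and 115.2 to 135 in Cadict.

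**Figure D3:**
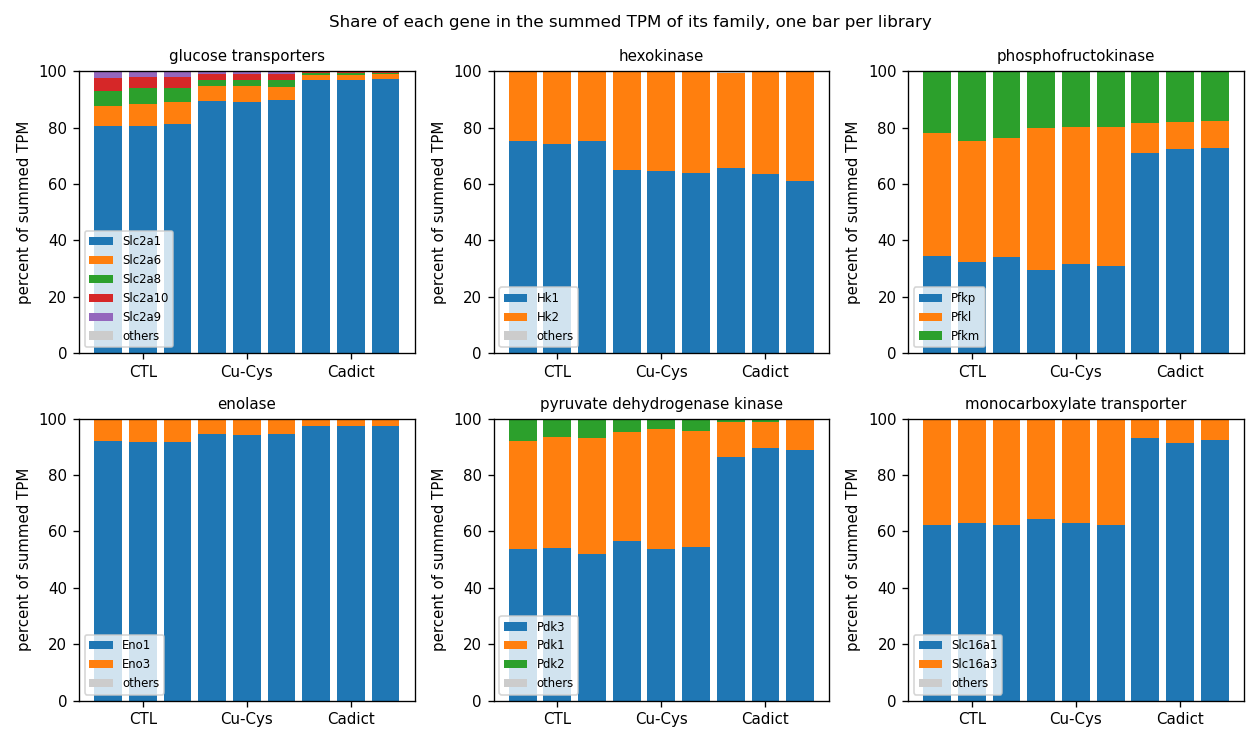
Percent of the summed TPM of a gene family (vertical axis) taken by each of its genes, with 1 bar per library and 3 per group. Slc2a1 and Pfkp take a larger share of their families in Cadict than in CTL, and Pfkl, Pdk1 and Slc16a3 a smaller one. The shares of Slc2a1 and Hk2 are larger than in CTL in both Cu-Cys and Cadict.

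Hexokinase and phosphofructokinase control entry into the pathway. Hk2, the inducible hexokinase of tumour cells that docks on mitochondria, had TMM CPM of 58.7, 58.0 and 57.5 in CTL, 82.4, 80.0 and 82.0 in Cu-Cys and 87.4, 89.9 and 104 in Cadict. Both treated groups lay above CTL on this scale, with Cadict above Cu-Cys and replicate 3 the highest. From CTL to Cu-Cys the log2 fold change was 0.49 ± 0.061 (adjusted p = 1.85e-05, edgeR) with TMM and 0.42 with library totals. From CTL to Cadict it was 0.69 ± 0.063 with TMM (adjusted p = 3.56e-08, edgeR) but -0.26 with library totals.

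Hk1, the constitutive hexokinase, gave a reference within each library. The ratio of Hk2 to Hk1 counts was 0.467, 0.505 and 0.462 in CTL, 0.76, 0.781 and 0.803 in Cu-Cys and 0.728, 0.791 and 0.878 in Cadict. The treated groups overlapped each other and not CTL, with log2 differences of 0.71 for Cu-Cys and 0.74 for Cadict against CTL. An exact two-sided permutation test over libraries gave p = 0.1 for each, adjusted p = 0.138 over 18 ratio tests, and 0.1 is the smallest value that 3 libraries against 3 allow. Between Cadict and Cu-Cys the difference was 0.03 (exact permutation p = 0.8), and 3 libraries against 3 cannot show that the groups are equal. Cu-Cys lacks both the enzyme and the peptide, and the cause of the step was not tested. The log2 fold change of Hk1 itself from CTL to Cu-Cys was -0.22 (adjusted p = 0.00311, edgeR) with TMM and -0.29 with library totals.

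Among the 6 ratios formed between related genes, that of the phosphofructokinase forms Pfkp and Pfkl changed most from CTL to Cadict. Pfkp, the platelet-type form, had TMM CPM of 99.7, 93.9 and 97.6 in CTL, 86.6, 87.1 and 91.1 in Cu-Cys and 96.5, 96.8 and 91.8 in Cadict. The CTL and Cadict libraries overlapped and the log2 fold change was -0.03 ± 0.051 (adjusted p = 0.575, edgeR), beside -0.98 with library totals. In Cu-Cys it was the one gene of the 10 below CTL in all libraries on both scales, at -0.14 ± 0.049 (adjusted p = 0.0338, edgeR) with TMM and -0.21 with library totals. Pfkl, the liver-type form, had 131.5 to 136.2 TMM CPM in CTL, 146.7 to 160.6 in Cu-Cys and 13.35 to 15.47 in Cadict, and from CTL to Cadict it fell by 3.24 on the log2 scale with TMM and fell by 4.19 with library totals. Pfkm, the muscle-type form, fell by 1.51 and 2.47. The ratio of Pfkp to Pfkl counts was 0.699 to 0.742 in CTL, 0.539 to 0.594 in Cu-Cys and 6.24 to 7.03 in Cadict, a log2 difference of 3.21 between Cadict and CTL (exact permutation p = 0.1, the smallest possible, adjusted p = 0.138). By TPM, Pfkp was 33.7% ± 1.1 of the 3 forms together in CTL, 30.6% ± 1 in Cu-Cys and 72.0% ± 0.94 in Cadict (SD, n = 3). Their summed TPM was 192.8 to 199.4 in CTL, 168.4 to 184.7 in Cu-Cys and 32.61 to 38.18 in Cadict.

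The steps around the split of the sugar differed among themselves. Gpi1, which interconverts glucose 6-phosphate and fructose 6-phosphate, had 287.3 to 301 TMM CPM in CTL, 284.2 to 310.2 in Cu-Cys and 390.9 to 444 in Cadict. CTL and Cu-Cys overlapped, and the Cadict value was higher than CTL by a log2 fold change of 0.50 with TMM and lower by one of -0.45 with library totals. Aldoa, the aldolase of muscle and most tumour cells, had TMM CPM of 528, 530 and 518 in CTL, 697, 646 and 683 in Cu-Cys and 1018, 1126 and 942 in Cadict. The groups did not overlap, and from CTL to Cadict the log2 fold change was 0.97 ± 0.061 with TMM, just under the 2-fold limit, and 0.01 with library totals. Without Cadict replicate 3 the TMM value was 1.03 and passed the call, as did the value of 1.09 with DESeq2 size factors.

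Tpi1, which equilibrates the triose phosphates, lagged behind its neighbours in Cadict. Its TMM CPM were 763, 764 and 733 in CTL, 858, 803 and 830 in Cu-Cys and 702, 822 and 635 in Cadict. Cadict and CTL overlapped on this scale, with Cadict replicate 2 above all CTL libraries and the other Cadict libraries below them. The log2 fold change from CTL to Cadict was -0.07 ± 0.073 (adjusted p = 0.404, edgeR) with TMM, and -1.02 with library totals. Without Cadict replicate 2 it was -0.17 (adjusted p = 0.000894, edgeR), so that Tpi1 was then lower at the 0.05 limit. From CTL to Cu-Cys it was 0.14 ± 0.073 (adjusted p = 0.129, edgeR), and the adjusted p by edgeR was 0.00354 without Cadict replicate 2 and 0.046 without Cadict replicate 3, since all groups share one estimate of the spread.

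A view that uses no scaling sets each gene against the mean log2 count of the 10 genes in its own library, a measure chosen after the values were seen. Tpi1 was 0.75 to 0.80 above this mean in CTL, 0.66 to 0.69 above it in Cu-Cys and -0.14 to 0.06 from it in Cadict, a difference of -0.82 between Cadict and CTL. Pfkp differed by -0.78 and Slc2a1 by 1.24 in the same comparison. Pkm and Eno1 differed by 0.44 and 0.34, Aldoa by 0.22, Ldha by -0.27 and Gpi1 by -0.25, while Hk2 and Pgk1 differed by -0.06 and -0.05. The 10 genes thus did not move as a block in Cadict. Relative to their mean, Slc2a1 and the last steps to pyruvate gained and Pfkp and Tpi1 lost ground. Gains and losses on this measure balance by construction, so a loss here need not be a fall in level. In Cu-Cys the differences from CTL ran from -0.38 for Pfkp to 0.40 for Slc2a1.

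**Figure D4:**
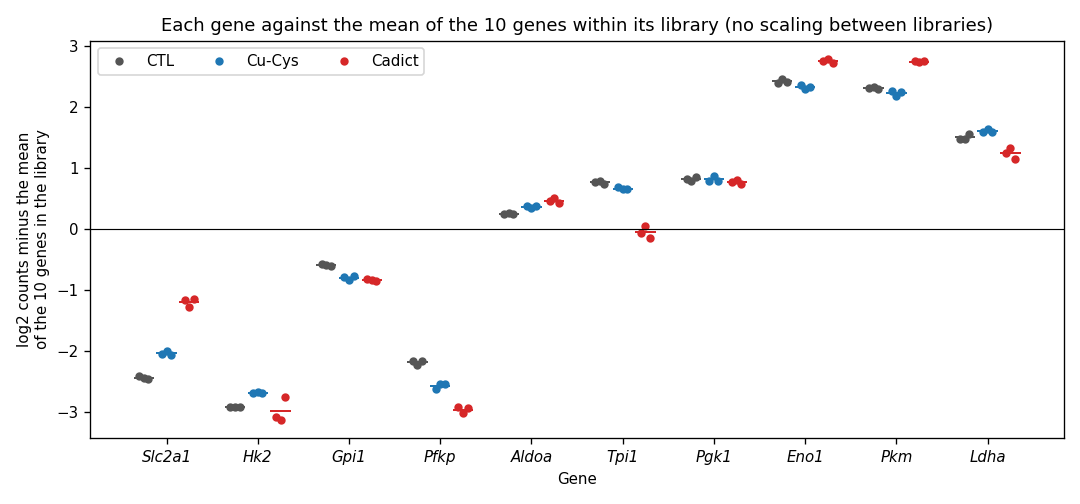
Log2 count of each gene minus the mean log2 count of the 10 genes in the same library (vertical axis), with 1 point per library and a bar at each group mean. Slc2a1 moves up from CTL to Cu-Cys to Cadict, Pfkp moves down in the same order, and Tpi1 drops in Cadict by 0.82.

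The steps after the triose phosphates held the most abundant transcripts. Pgk1, which makes the first ATP of the pathway, had TMM CPM of 788, 762 and 790 in CTL, 928, 928 and 914 in Cu-Cys and 1254, 1380 and 1167 in Cadict. The log2 fold change from CTL to Cadict was 0.70 ± 0.057 with TMM and -0.25 with library totals. Of the 50-base stretches in its transcripts, 53.9% also occur in a transcript of another annotated gene, so its counts depend on how shared reads were divided.

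Eno1, the main enolase, had TMM CPM of 2346, 2410 and 2328 in CTL, 2749, 2508 and 2654 in Cu-Cys and 5012, 5503 and 4628 in Cadict. It rose from CTL to Cadict by a log2 fold change of 1.10 ± 0.061 (adjusted p = 8.4e-11, edgeR) with TMM, and the value was 0.14 with library totals. In TPM Eno1 was lower in Cadict, at 2938 to 3065, beside 3396 to 3532 in CTL. Eno3, the muscle enolase, had 305.1 to 310.8 TPM in CTL, 195.6 to 204.8 in Cu-Cys and 70.25 to 74.56 in Cadict, so that Eno1 made up 91.8% ± 0.14, 94.5% ± 0.18 and 97.5% ± 0.1 of the summed enolase TPM (SD, n = 3). Of the 50-base stretches of Eno1, 26% are shared with other annotated genes.

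Pkm, the pyruvate kinase of non-hepatic tissues whose splice forms are counted together here, had TMM CPM of 2220, 2211 and 2140 in CTL, 2555, 2314 and 2494 in Cu-Cys and 4958, 5274 and 4733 in Cadict. All Cadict libraries lay above all others with TMM and with library totals. In TPM Pkm was lower in Cadict, at 2155 to 2336, beside 2382 to 2553 in CTL and 2339 to 2597 in Cu-Cys. It rose from CTL to Cadict by a log2 fold change of 1.19 ± 0.054 (adjusted p = 7.93e-12, edgeR) with TMM, and the value was 0.23 with library totals. From Cu-Cys to Cadict it rose by 1.02 ± 0.054 (adjusted p = 5.72e-11, edgeR), which fell to 0.98 and below the call without Cadict replicate 2 or without Cu-Cys replicate 2, and was 0.14 with library totals.

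Ldha, the lactate dehydrogenase that favours lactate formation, had TMM CPM of 1244, 1234 and 1280 in CTL, 1596, 1576 and 1582 in Cu-Cys and 1744, 1990 and 1550 in Cadict. Both treated groups were above CTL, and Cadict replicate 3 fell below all Cu-Cys libraries. From CTL to Cu-Cys the log2 fold change was 0.34 ± 0.069 (adjusted p = 0.00112, edgeR) with TMM and 0.27 with library totals. From CTL to Cadict it was 0.49 ± 0.069 (adjusted p = 6.68e-06, edgeR) with TMM and -0.46 with library totals. Ldhb, the heart-type partner, had at most 6 counts in any library, so Ldha was the one lactate dehydrogenase with appreciable counts and no ratio was formed.

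The chain is completed by Gapdh and Pgam1, which moved in opposite directions in Cadict. Gapdh, glyceraldehyde 3-phosphate dehydrogenase, had 2645 to 2778 TMM CPM in CTL, 3232 to 3481 in Cu-Cys and 6758 to 7946 in Cadict, and rose by a log2 fold change of 1.43 ± 0.061 (adjusted p = 3.11e-12, edgeR), with 0.47 by library totals. Pgam1, phosphoglycerate mutase, had 660.1 to 679.7, 798.7 to 810.3 and 324.9 to 336.1 TMM CPM. It fell by 1.02 on the log2 scale with TMM (adjusted p = 4.28e-12, edgeR) and by 1.98 with library totals, and it lies directly between Pgk1 and Eno1 in the pathway. With DESeq2 size factors its value was -0.90 and missed the 2-fold limit. In Cu-Cys both were higher than CTL, with log2 fold changes of 0.33 and 0.26. With 24.7% of the 50-base stretches of Gapdh and 36.2% of those of Pgam1 shared with other genes, both depend on how such reads were divided.

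**Figure D5:**
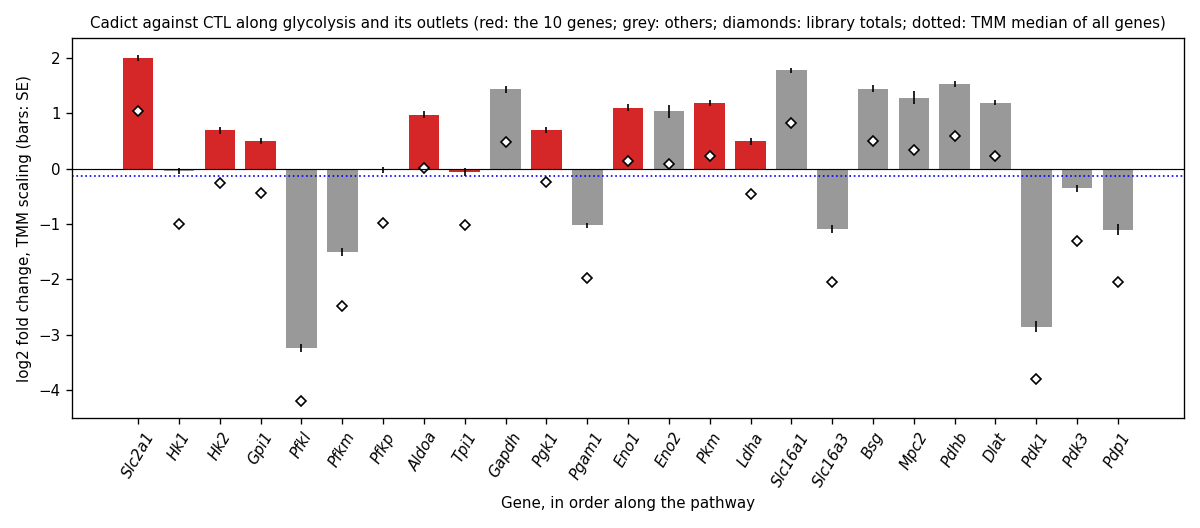
Log2 fold change from CTL to Cadict (vertical axis) for genes in pathway order, with the 10 genes as red bars and other genes as grey bars on the TMM scale (error bars SE), library totals as diamonds and the TMM median of all genes as a dotted line. The bars run from 1.99 for Slc2a1 to -3.24 for Pfkl, and Pgam1 at -1.02 lies between Pgk1 at 0.70 and Eno1 at 1.10.

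Of 20 glycolytic enzymes outside the 10 genes, 9 were tested from CTL to Cadict. Gapdh, Eno1b and Eno2 were called higher and Pfkl, Pfkm, Pgam1 and Bpgm lower with TMM, beside 20.7% and 27.1% of all genes, with a median of -0.77, and Eno1b and Bpgm fell outside the naming rule. With library totals none was called higher and 6 were called lower, beside 6.93% and 51.5% of all genes. The falls of Pfkl and Pfkm were called with TMM, DESeq2 size factors and library totals. From CTL to Cu-Cys none of the 9 was called, beside 1.64% of all genes. Among 6 tested regulators 1 was called higher and 3 lower from CTL to Cadict with TMM, beside 20.7% and 27.1% of all genes. With library totals the counts were 0 and 3, beside 6.93% and 51.5%. Tigar, which lowers fructose 2,6-bisphosphate, was called higher at 1.16 with TMM and was at 0.20 with library totals. Pfkfb2, one of the enzymes that make fructose 2,6-bisphosphate, fell by 1.43 and 2.39, and Pfkfb4, another of them, by 1.82 and 2.77. Pfkfb1, which lies outside the naming rule, had 45 to 59 counts in CTL and 1 to 2 in Cadict and was the other regulator called lower. The ratio of Pfkfb3 to Pfkfb4 counts was 1.31 to 1.76 in CTL, 2.01 to 2.21 in Cu-Cys and 4.82 to 9.05 in Cadict, a log2 difference of 2.1 between Cadict and CTL (exact permutation p = 0.1, the smallest possible).

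At the exit of glycolysis, lactate carriers and the pyruvate dehydrogenase complex also split by gene. Slc16a1, a lactate transporter, had 170.5 to 177.6 TMM CPM in CTL, 248.7 to 254.9 in Cu-Cys and 576.7 to 606.7 in Cadict, and rose by 1.77 ± 0.046 with TMM (adjusted p = 1.32e-14, edgeR), with 0.82 by library totals. Slc16a3, the exporter typical of strongly glycolytic cells, had 53.59 to 54.46, 72.77 to 77.99 and 22.6 to 27.8 TMM CPM. It fell from CTL to Cadict by 1.09 with TMM and by 2.04 with library totals, and the value of -0.97 with DESeq2 size factors missed the call, while its log2 fold change from CTL to Cu-Cys was 0.49 (adjusted p = 1.67e-05, edgeR). The ratio of Slc16a3 to Slc16a1 counts was 0.305 to 0.314 in CTL, 0.285 to 0.314 in Cu-Cys and 0.0376 to 0.0482 in Cadict, and only the Cadict libraries stood apart. Their chaperone Bsg was higher by 1.44 with TMM and 0.49 with library totals, and Mpc2, a subunit of the mitochondrial pyruvate carrier, by 1.28 and 0.33. In all, 3 of the 7 tested transport genes were called higher and 1 lower with TMM, beside 20.7% and 27.1% of all genes, and 0 and 2 with library totals, beside 6.93% and 51.5%.

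Of 10 tested genes of pyruvate dehydrogenase and its control, 2 were called higher and 3 lower from CTL to Cadict with TMM, which is near the 20.7% and 27.1% of all genes, and 0 and 4 with library totals, beside 6.93% and 51.5%. Pdhb and Dlat, subunits of the complex, rose by 1.53 and 1.19, with 0.58 and 0.23 by library totals. Pdk1, a kinase that inhibits the complex, had 84.46 to 90.56 TMM CPM in CTL, 87.16 to 95.16 in Cu-Cys and 10.28 to 14.7 in Cadict, and it fell by 2.85 with TMM and fell by 3.80 with library totals. Pdp1, a phosphatase that reactivates the complex, fell by 1.10 and 2.05 and missed the call at -0.98 with DESeq2 size factors. Pdk2, the third gene called lower, was under 10 CPM. The ratio of Pdk1 to Pdk3 counts was 1.66 to 1.8 in CTL, 1.56 to 1.78 in Cu-Cys and 0.253 to 0.359 in Cadict.

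The lists for glycogen and gluconeogenesis were mixed. Of 10 tested glycogen genes, 2 were called higher and 4 lower from CTL to Cadict with TMM, beside 20.7% and 27.1% of all genes, and 1 and 5 with library totals, beside 6.93% and 51.5%. Of 3 tested gluconeogenic genes 1 was called higher with TMM, and with library totals 1 was called lower. Pygb, the brain-type glycogen phosphorylase, fell by 2.18 and 3.14 with TMM and library totals, Gyg, the glycogen primer, by 1.75 and 2.70, and the phosphoglucomutase relative Pgm2l1 by 1.50 and 2.45. Gbe1, the branching enzyme, was at 1.04 and 0.09, and G6pc3, a glucose 6-phosphatase, at 1.03 and 0.07, and each depended on single libraries and on the filter on low counts, with no filter giving 0.96 and 0.94. Gbe1 lost the call without CTL replicate 2, at 0.98, or without Cadict replicate 3, at 1.00, and G6pc3 lost it without CTL replicate 1, at 0.96, Cadict replicate 1, at 0.98, or Cadict replicate 2, at 0.99. The other glycogen gene called higher, Pygm, was under 10 CPM.

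Cu-Cys was compared with CTL to measure the polymer without the enzyme and the peptide. None of the 10 genes was called, beside 1.64% of all genes, of which 0.167% were higher and 1.47% lower. With edgeR and a limit of 0.05 on the adjusted p, 7 were higher and 1 lower, beside 22.6% and 22.4% of all genes. Pfkp, Eno1 and Pkm each passed that limit no longer when certain single libraries were left out, with edgeR adjusted p of up to 0.139, 0.168 and 0.104. With library totals 5 were higher, namely Slc2a1, Hk2, Aldoa, Pgk1 and Ldha, and Pfkp was lower, beside 15.4% and 28.9% of all genes. The median of the 10 genes was 0.20 with TMM and 0.14 with library totals, and the medians of all genes were 0.01 and -0.06. Slc2a1 at 0.65, Hk2 at 0.49, Aldoa at 0.36 and Ldha at 0.34 had the larger log2 fold changes, at percentiles 97.6, 94.8, 90 and 88.6 of all genes, and Gpi1 at 0.03 the smallest. The libraries did not overlap for 9 of the 10 genes with TMM, beside 61.2% of all genes, 8 of them above CTL.

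Cadict was compared with Cu-Cys, which lacks the enzyme and the peptide. Slc2a1 and Pkm were called higher and none lower with TMM, beside 18.6% and 23.6% of all genes. With library totals the call was left with Tpi1 alone, lower at -1.09, beside 5.76% of all genes higher and 47.7% lower. The median of the 10 genes was 0.46 with TMM and -0.42 with library totals, and the medians of all genes were -0.10 and -0.98. Eno1 at 0.94 stayed just under the 2-fold limit with TMM, passed it at 1.03 with DESeq2 size factors and was at 0.05 with library totals. With TMM, Hk2 at 0.20, Ldha at 0.15, Pfkp at 0.11 and Tpi1 at -0.21 were the smallest in size. With library totals these same genes were the largest in size, at -0.68, -0.73, -0.78 and -1.09. The libraries did not overlap for 8 of the 10 genes with TMM, beside 85% of all genes. Both Cadict comparisons use the same Cadict libraries, and the comparisons with CTL share the CTL libraries, so they are not independent.

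Together the 10 genes took between 0.968% and 1.2% of the counts in every library. Their counts summed to 1.07%, 1.07% and 1.05% of the library total in CTL, 1.2%, 1.13% and 1.18% in Cu-Cys and 1.03%, 1.09% and 0.968% in Cadict. Cu-Cys libraries were above CTL by 0.109 percentage points and Cadict libraries differed from CTL by -0.0346, with exact two-sided permutation p of 0.1 and 0.5 (adjusted p = 0.15 and 0.5, smallest possible p = 0.1). Cadict and CTL overlapped, and in TPM the Cadict share was lower than CTL by more than the spread, at 0.875% ± 0.0185 against 1.19% ± 0.0259 (SD, n = 3).

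The genes whose levels followed a member most closely were named as a description over the 9 libraries, which share 3 groups, among 8541 genes. Slc2a1 was tracked by Utp14a, a nucleolar protein of ribosome biogenesis, and Me1, the cytosolic malic enzyme that makes NADPH, with Pearson r of log2 TMM CPM of 0.999 and 0.9988. Hk2 was tracked by Spata5 at 0.994 and Naa25 at 0.989, and Ldha by the ribosomal protein gene Rpl6 at 0.9909 and by Med8 at 0.987.

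Promoter windows of the 10 genes were read from RefSeq models on GRCm38.p6, as 250 bases before the start site, with 16 windows because several genes have more than 1 start. They were searched on both strands for ACGTG and GCGTG, the core letters of the hypoxia response element, and for CACGTG, an E-box that contains ACGTG. Of these 16 windows 7 held ACGTG, 6 GCGTG and 1 CACGTG, and over all 32851 windows of the table the shares were 16.6%, 28.2% and 6.02%. The windows of 1 gene can overlap, and the matches fell in 6, 4 and 1 of the 10 genes. Gpi1 and Tpi1 held none of them, and Pkm held 1 ACGTG in 1 of 2 windows. The windows of Slc2a1, the gene with the largest change, and of Ldha, the gene with the most matches, are shown 5′ to 3′ on the sense strand with ACGTG or GCGTG matches on either strand in capitals. The Slc2a1 window lies at chr4:119108495-119108744 on the plus strand and the Ldha window shown at chr7:46845554-46845803 on the plus strand, each ending at the base before the annotated start. The other Ldha window, of a second start, held 1 GCGTG and no ACGTG or CACGTG.
Slc2a1: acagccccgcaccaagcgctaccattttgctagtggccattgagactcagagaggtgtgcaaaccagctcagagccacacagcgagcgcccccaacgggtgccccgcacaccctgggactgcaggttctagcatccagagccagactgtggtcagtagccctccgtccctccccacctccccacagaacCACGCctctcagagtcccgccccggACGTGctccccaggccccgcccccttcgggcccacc
Ldha: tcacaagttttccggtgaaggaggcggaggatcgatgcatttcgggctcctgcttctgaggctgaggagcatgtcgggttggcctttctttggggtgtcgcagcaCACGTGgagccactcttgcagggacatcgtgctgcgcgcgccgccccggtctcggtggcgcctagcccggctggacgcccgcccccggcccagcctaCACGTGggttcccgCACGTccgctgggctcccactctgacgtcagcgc
In the windows shown, Ldha held CACGTG 145 and 48 bases before the start, and Slc2a1 held ACGTG 36 bases before its own. These matches are descriptions of letters in a window, and the libraries hold no measurement of binding.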

How the data were processed

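Poly(A) RNA of 9 MC38 libraries was profiled, and libraries were grouped by their labels (3 CTL, 3 Cu-Cys, 3 Cadict). The authors deposited 1 table of 16509 genes with expected counts (estimated read counts per gene), TPM, FPKM and signal values (counts divided by 1 size factor per library), and columns of group averages, which were not used. The submitters' processing notes name HISAT2 2.1.0, Bowtie2 2.3.4.3, RSEM 1.3.1 and the builds GRCm39 and GRCh38.p13, without roles. Columns marked CC were read as Cu-Cys and those marked CCGE as Cadict, the latter inferred from its components. The labels name a column RNA kit and DNA nanoball sequencing, and the methods TRIzol and an Illumina instrument. Strand-specific counting was not given in the sources used here.

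Expected counts were rounded and fitted in R 4.3.3 with edgeR 4.0.16 (filterByExpr, TMM, one quasi-likelihood model of the 3 groups), with Benjamini-Hochberg adjustment over the 11949 genes tested. Calls used the threshold of the study, a 2-fold or larger change with an adjusted p no higher than 0.001. This script was tested on simulated counts in which few genes changed, in random directions. That test did not cover a shift in scaling like that of Cadict. The members and lists were chosen with earlier results of these data known, so no list was tested. Beyond the 10 members, genes were named by a rule: Gapdh and Pgam1, every pathway gene called in Cadict against CTL with a mean of at least 10 TMM CPM, of which there were 20 (1 is not reported here), partners of the isoenzyme ratios, and the 2 genes most correlated with Slc2a1, Hk2 or Ldha. A few genes outside it are named and said to be. Ratios were formed within libraries where both genes had at least 10 counts. Shares within families and distances from the mean of the 10 genes were chosen after the values were seen. Alternatives used DESeq2 1.42.0, limma 3.58.1, other scalings, filters, thresholds and each library left out. Residuals of libraries with the same replicate number correlated at -0.192 to 0.161 over 8551 genes, so numbers were not taken as pairs. Promoter windows came from RefSeq tables on GRCm38.p6 and shared 50-base stretches from GENCODE transcripts, with Python 3.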

Additional observations from a re-analysis of the deposited data

How the results depend on the processing

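Of the 10 genes, Slc2a1 kept a positive change in all 3 comparisons under each of the 19 alternatives run, and no other gene did so in both Cadict comparisons. The cause of the shifts below was not tested, apart from scalings, which move all genes together. With library totals, log2 fold changes from CTL to Cadict turned to -0.26 for Hk2, -0.45 for Gpi1, -0.25 for Pgk1, -0.46 for Ldha and -0.26 for the median of the 10 genes. From Cu-Cys to Cadict they turned to -0.68 for Hk2, -0.42 for Gpi1, -0.78 for Pfkp, -0.28 for Aldoa, -0.43 for Pgk1, -0.73 for Ldha and -0.42 for the median, and from CTL to Cu-Cys to -0.04 for Gpi1, with a median of 0.14.

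With limma on log2(FPKM + 1) the Cadict against CTL values were -0.21 for Hk2, -0.46 for Gpi1, -0.27 for Pgk1, -0.48 for Ldha and -0.24 for the median. Those of Cadict against Cu-Cys were -0.62 for Hk2, -0.42 for Gpi1, -0.76 for Pfkp, -0.29 for Aldoa, -0.44 for Pgk1, -0.75 for Ldha and -0.43 for the median, and Cu-Cys against CTL gave -0.04 for Gpi1, a median of 0.13 and 71 genes called. With limma on log2(TPM + 1), Cadict against CTL gave -0.55 for Hk2, -0.80 for Gpi1, -0.34 for Aldoa, -0.61 for Pgk1, -0.22 for Eno1, -0.12 for Pkm, -0.83 for Ldha, -0.06 for Mpc2, -0.11 for Dlat, -0.25 for Tigar, -0.25 for Gbe1, -0.28 for G6pc3 and -0.58 for the median. Cadict against Cu-Cys gave -0.89 for Hk2, -0.69 for Gpi1, -1.04 for Pfkp, -0.56 for Aldoa, -0.71 for Pgk1, -0.23 for Eno1, -0.14 for Pkm, -1.02 for Ldha, -0.07 for Gapdh and -0.70 for the median, and Cu-Cys against CTL -0.11 for Gpi1, -0.01 for Tpi1, a median of 0.06 and 117 genes called. A pseudocount of 0.1 moved Hk2 to -0.57 and -0.93, Pfkp to -1.06, Dlat to -0.12, Tigar to -0.27, Gbe1 to -0.26, G6pc3 to -0.29 and the Cadict against CTL median to -0.59, and left the other reversed values within 0.01.

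With DESeq2 size factors, in edgeR or in the DESeq2 Wald test, Pfkp and Tpi1 turned to 0.09 and 0.05 from CTL to Cadict and the median was 0.81. With these size factors in edgeR, Aldoa at 1.09 and, from Cu-Cys to Cadict, Eno1 at 1.03, Mpc2 at 1.04, Dlat at 1.08 and G6pc3 at 1.08 gained the call, and Pgam1 at -0.90, Slc16a3 at -0.97 and Pdp1 at -0.98 lost it from CTL to Cadict. A fit of those 2 groups alone put Pfkp at 0.00, Pgam1 at -0.99, without the call, and Aldoa at 1.00, with it. Where 3 values are given below, their order is Cadict against CTL, Cu-Cys against CTL and Cadict against Cu-Cys. A limit of 0.05 on the adjusted p and none on the fold change gave 10484, 5381 and 10263 of the 11949 genes tested. Of the 10 genes, 8, 7 and 7 were then higher and 0, 1 and 1 lower. At least 10 counts in every library left 119 genes called from CTL to Cu-Cys. The count of the 10 genes called from Cu-Cys to Cadict was 1 with that filter, with no filter, with library totals and with FPKM, and 1 to 2 when single libraries were left out, the lower value without Cadict replicate 2 or Cu-Cys replicate 2, which took Pkm to 0.98. In TPM the share of the 10 genes differed by -0.316, 0.0602 and -0.376 percentage points in the same order, and the Cu-Cys to CTL difference in log2 Pdk1 to Pdk3 was 0.00106, with -0.0652 to 0.0307 when single libraries were left out. Leaving out Cadict replicate 3 put Tpi1 at 0.01 (range -0.17 to 0.01) and the Cadict to Cu-Cys difference in log2 Hk2 to Hk1 at -0.0416 (range -0.0416 to 0.0934). A replicate block gave 5685, 183 and 5019 genes called and 3, 0 and 2 of the 10 genes, and changed no call of the 10. Counting error limits none of the 10 genes at this depth, but partners under 10 counts (Slc2a3, Ldhb, Aldoc) gave no ratio.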
